A study of Mus musculus with 18 samples.

Results

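The genes of taurine and sulfur amino acid metabolism were examined in mouse liver RNA sequencing of 18 libraries from 6 groups of 3 mice. Members were the rows of the deposited expression table whose symbol is Mat1a, Gnmt, Ahcy, Bhmt, Cbs, Cth, Cdo1, Csad, Slc6a6 or Gclc, and all 10 were found among 19057 rows. All 10 also passed the filter on low values, 1 RPKM (reads scaled by transcript length and by the mapped reads of the library) in at least 3 libraries, which left 10822 genes for testing. The members were chosen by their measured levels in the Con, STZ and transplanted mice, so differences among those groups are described here without a test, and the tests of members are those that bring in AOS or STZ+AOS mice.

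All mice were of the ICR strain, an outbred stock, and the livers were taken at 10 weeks of age. Con mice received the regular diet and saline. STZ mice received an injection of streptozotocin, a compound that destroys the insulin-producing cells of the pancreas and is used as a model of type 1 diabetes. A10-FMT mice received STZ and then microbiota from donors given alginate oligosaccharide (AOS) at 10 mg/kg, and Con-FMT mice received STZ and then microbiota from control donors. The transplanted material was small-intestinal content pooled over the donors of a group, so the mice of an FMT group shared 1 inoculum, and the effect of a donor group cannot be told apart from that of its pool. The AOS group (10 mg/kg) and the STZ+AOS group (STZ and AOS at 10 mg/kg) are known only from the sample labels, which give neither the route nor the timing of their doses. The labels number the libraries of a group 1 to 3 and do not say more about their origin. Each library is called a mouse below, and p-values measure the spread between these samples.

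Methionine is turned into S-adenosylmethionine, the methyl donor of the cell, and after the methyl group is spent the remaining homocysteine is either methylated again or passed through cystathionine to cysteine. Cysteine is then built into glutathione or oxidized to cysteine sulfinate, which is decarboxylated to hypotaurine and ends as taurine. The liver carries most of this traffic in the body, and uses taurine to conjugate bile acids.

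The bases before the transcription start sites are shown for Csad, the member that was lowest with STZ, and for Gnmt and Ahcy, the members whose levels were most alike. RefSeq windows (GRCm38.p6) were matched by symbol for 5 of the 10 genes. They gave 6 windows, 2 of them for Csad, and the stretch outside annotated exons is printed in lower case, 5′ to 3′, with TGACCT, which reads AGGTCA on the other strand, in capitals. All 3 genes lie on the minus strand, the Csad stretch (the start site inside the gene) at chr15:102189059-102189293, the Gnmt stretch at chr17:46729169-46729415 and the Ahcy stretch at chr2:155074498-155074747.
Csad: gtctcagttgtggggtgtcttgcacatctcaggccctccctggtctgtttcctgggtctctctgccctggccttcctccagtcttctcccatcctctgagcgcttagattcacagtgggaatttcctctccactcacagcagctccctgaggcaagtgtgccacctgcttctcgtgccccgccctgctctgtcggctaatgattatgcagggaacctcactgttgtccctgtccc
Gnmt: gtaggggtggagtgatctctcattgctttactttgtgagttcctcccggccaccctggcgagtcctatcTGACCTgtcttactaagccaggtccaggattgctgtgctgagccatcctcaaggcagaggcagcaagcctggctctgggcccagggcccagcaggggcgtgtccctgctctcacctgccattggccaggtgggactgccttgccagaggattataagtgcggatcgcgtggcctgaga
Ahcy: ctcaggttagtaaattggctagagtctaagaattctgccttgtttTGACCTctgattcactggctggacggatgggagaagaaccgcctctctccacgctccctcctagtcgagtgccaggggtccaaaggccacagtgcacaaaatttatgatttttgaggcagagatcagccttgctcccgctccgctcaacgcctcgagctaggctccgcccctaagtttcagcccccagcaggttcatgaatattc
Both strands of the 250 bases before each start site were searched for 5 strings of letters. AGGTCA, the core letters bound by many nuclear receptors, was found at -181 in Gnmt, at -205 in Ahcy and at -234, -72 and -47 in Bhmt, counted from the start site, and in 14.0% of all 32851 windows of this length. The E box CACGTG was found in Cbs and in 6.02% of all windows. TGACNNNGC, the core of the antioxidant response element (10.2% of all windows), TGATGNAA, the core of the amino acid response element (3.45%), and TATAAA (12.4%) were not among the letters of the 6 windows. None of the 5 strings occurred in either Csad window.

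Before the levels, 2 libraries are named because they stood apart. On log2(RPKM + 1) over the genes tested, STZ mouse 3 lay 61.6 (Euclidean distance) from the mean of the other STZ mice and 30.8 from the mean of the Con-FMT mice. STZ+AOS mouse 3 lay 53.4 from the mean of the other STZ+AOS mice. Distances from the other mice of the group were 14.4 to 43.8 in the remaining 16 libraries. The lowest were those of Con mouse 3 (14.4) and AOS mouse 3 (14.9), and the next was 22.7. Some levels of these 2 lay between those of mice 1 and 2, as for Hbb-bs in Con (0.85, 220.2 and 91.9 RPKM) and AOS (0.9, 133 and 84.6). Others did not, as for Gnmt in Con. The origin of this closeness was not tested, and the spread of both groups rests on these libraries. The results below are therefore also given without these 2 mice where that matters. The labelled tissue was borne out by albumin (Alb), at 24367 to 37719 RPKM in all 18 libraries. None of the 8 hepatocyte markers was at 0 throughout, though Serpina1e was only at 0.45 to 1.84 RPKM. At a limma adjusted p under 0.05, 3 of the 8 were higher and 2 lower in STZ against Con, and likewise in STZ+AOS against AOS. Of all genes, 30.8% and 31.8% were higher and 5.25% and 6.11% lower. In STZ+AOS mouse 3 the 6 pancreatic acinar markers summed to 69.9 RPKM, against 3.45 to 14.4 in the other mice given STZ, and to 31 to 49.6 in Con and AOS mice, where nearly the whole sum was Cela1. The part of other cell types in the levels below was not tested. In bulk liver RNA, fewer cells of a type and less RNA per cell cannot be told apart.

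Per length of transcript, Con livers held most Bhmt (2114 ± 151 RPKM, mean ± SD, n = 3), followed by Gnmt (1144 ± 50.1), Cdo1 (765 ± 34.6) and Mat1a (423 ± 24.5). Cth, Csad and Cbs stood close together at 171 ± 30.2, 139 ± 9.61 and 122 ± 10.1 RPKM, and the mice of each neighbouring pair overlapped. Gclc (74.9 ± 13.2), Ahcy (30.5 ± 2.13) and Slc6a6 (15.4 ± 1.08) were the lowest, with no overlap between neighbours. In STZ livers the order was another. Gnmt, Mat1a and Bhmt led at 2927 ± 608, 2711 ± 890.3 and 2186 ± 456 RPKM with overlapping mice, and Csad, at 14.6 ± 0.17, was last. The 10 genes together made up 0.623% to 0.663% of the RPKM sum in Con livers, 0.581% to 0.835% with AOS, 1.09% to 1.85% with STZ and 1.41% to 1.99% with STZ+AOS.

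**Figure D1:**
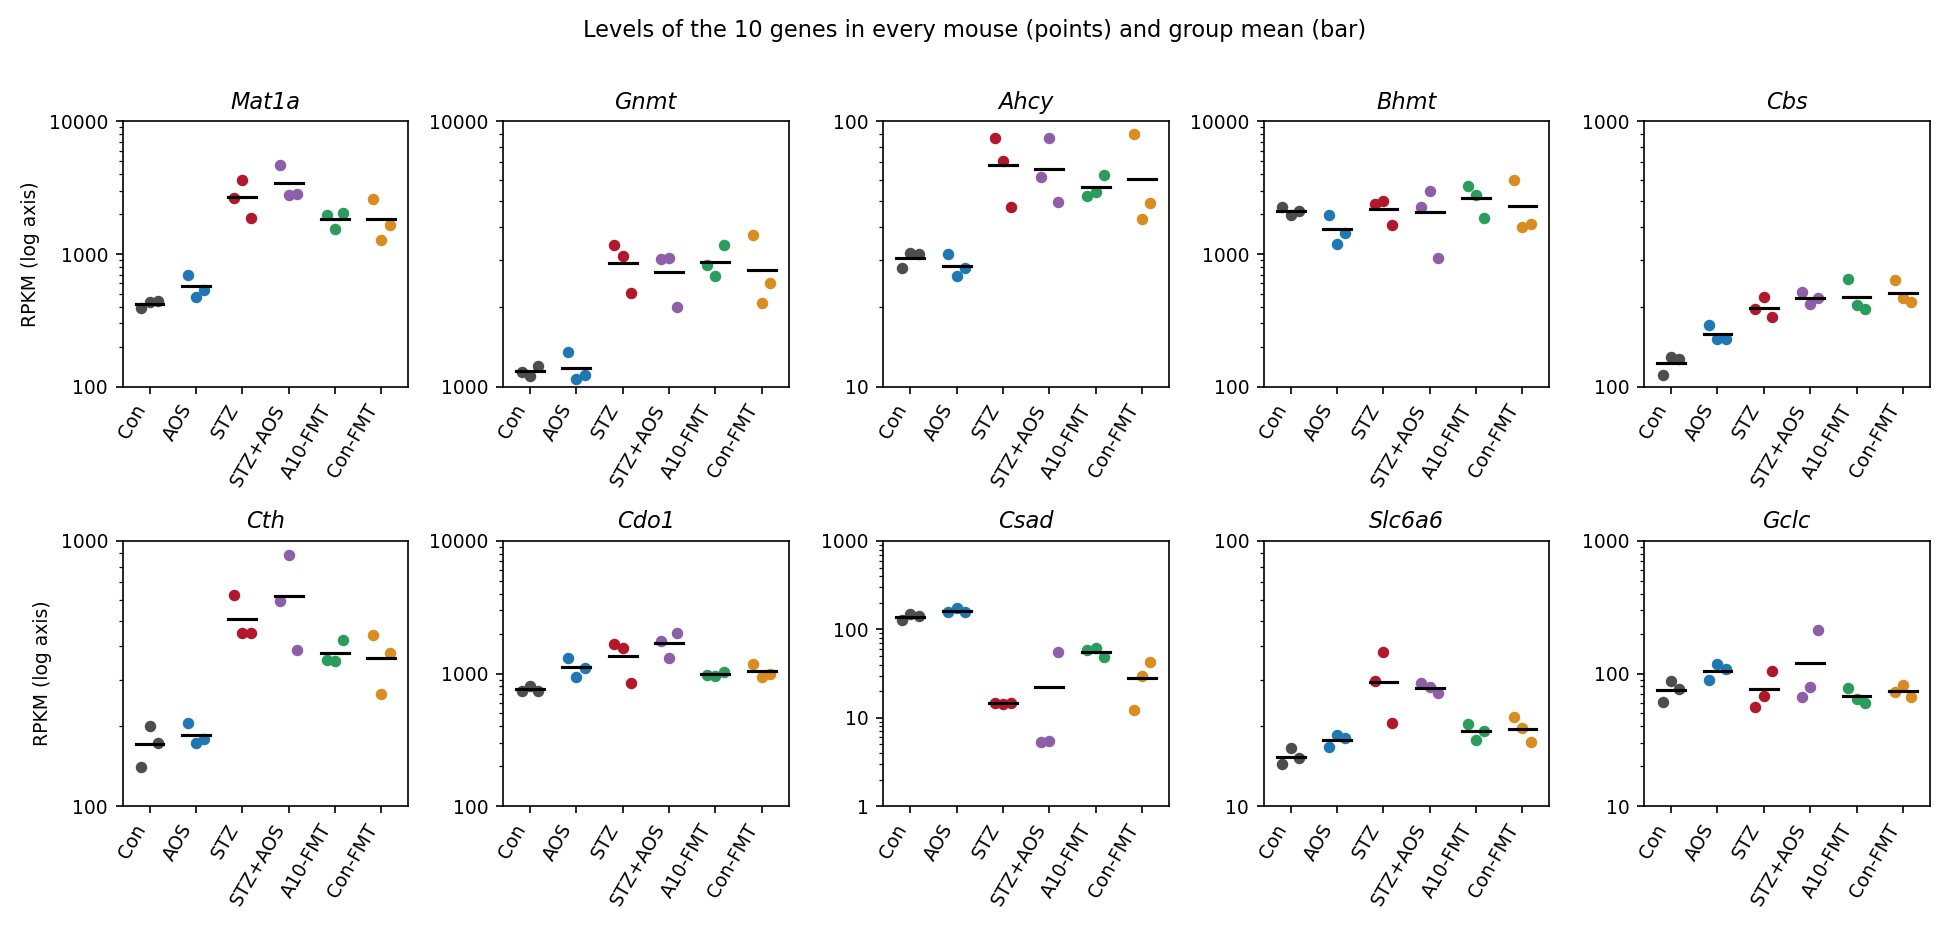
RPKM (log axis, a different range in each panel) of the 10 genes in each of the 18 mice, by group; points are mice, in the order 1 to 3, and the bar is the group mean. Csad sits at 129 to 173 in Con and AOS mice and at 5.26 to 61.2 in the mice given STZ, while Mat1a sits at 395 to 700.1 and at 1279.7 to 4712.

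Mat1a (chr14:41105035-41124412, plus strand, GRCm38, GENCODE M21) encodes the liver form of methionine adenosyltransferase, which makes S-adenosylmethionine. It was at 395, 434 and 439.6 RPKM in the Con mice and at 700.1, 476 and 538 in the AOS mice. With STZ it was at 2639, 3635 and 1859, and with STZ+AOS at 4712, 2767 and 2816. Every mouse given STZ was above every mouse not given it, and by mean level Mat1a moved from rank 180 among all genes in Con to rank 31 in STZ. The difference between STZ and Con was 2.63 (SE 0.29) on the log2(RPKM + 1) scale, or 6.41-fold in mean RPKM. In the mice outside the choice of members, Mat1a rose by 2.56 (SE 0.29) in STZ+AOS against AOS (limma adjusted p = 4.96e-05), 6.01-fold in mean RPKM. Only the means compared are of those mice. For this and each other member, the spread behind SE and p comes from all 6 groups, including those known when the members were chosen.

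Gnmt (chr17:46725664-46729168, minus strand) encodes glycine N-methyltransferase, which spends S-adenosylmethionine on glycine and is one of the most abundant methyltransferases of the liver. Its levels were 1133, 1101 and 1199 RPKM in Con, 1356, 1069 and 1107 in AOS, 3432, 3098 and 2252 in STZ and 3038, 3061 and 2004 in STZ+AOS. The 6 mice without STZ lay below the 6 mice with it. STZ differed from Con by 1.33 (SE 0.23), and Gnmt rose by 1.18 (SE 0.23) in STZ+AOS against AOS (adjusted p = 0.0018).

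Ahcy (chr2:155059310-155074497, minus strand) encodes the hydrolase that splits S-adenosylhomocysteine, the product and inhibitor of methyltransferases, into homocysteine and adenosine. It was at 28.0, 31.8 and 31.6 RPKM in Con, 31.6, 26.2 and 27.9 in AOS, 86.4, 71.1 and 47.5 in STZ and 61.7, 86.8 and 49.9 in STZ+AOS, again without overlap between mice with and without STZ. Against Con, STZ mice differed by 1.10 (SE 0.25), and the rise in STZ+AOS against AOS was 1.15 (SE 0.25, adjusted p = 0.00335).

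Bhmt (chr13:93616675-93637961, minus strand), which methylates homocysteine back to methionine with betaine, did not share this pattern. Its levels were 2271, 1971 and 2101 RPKM in Con, 1953, 1192 and 1453 in AOS, 2373, 2519.5 and 1666 in STZ and 2260.3, 3008 and 929 in STZ+AOS. Mice with and without STZ overlapped in both pairs of groups, and the lowest value of all 18 was that of STZ+AOS mouse 3. Between STZ+AOS and AOS the overlap lay in that mouse. The difference between STZ and Con was 0.028 (SE 0.39), and that between STZ+AOS and AOS, 0.30 (SE 0.39), did not pass the test (adjusted p = 0.564). Without the 2 mice that stood apart the latter was 0.80 and did not pass either (limma adjusted p = 0.0679).

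Cbs and Cth carry homocysteine to cysteine. Cbs (chr17:31608894-31637238, minus strand), which joins homocysteine and serine to cystathionine, was at 111, 129.7 and 127 RPKM in Con, 170.3, 152 and 152 in AOS, 195, 218 and 182 in STZ and 228, 204 and 217 in STZ+AOS. The groups with STZ lay above those without it. Cth (chr3:157894248-157925077, minus strand), which splits cystathionine to cysteine, was at 141, 201 and 173 in Con, 205, 172 and 179 in AOS, 626, 450.0 and 449 in STZ and 592, 883 and 389 in STZ+AOS. It stood apart from the mice without STZ by a wider margin than Cbs. The differences between STZ and Con were 0.69 (SE 0.12) for Cbs and 1.56 (SE 0.25) for Cth. In STZ+AOS against AOS, Cth rose by 1.66 (SE 0.25, adjusted p = 0.000391) and Cbs by 0.45 (SE 0.12, adjusted p = 0.0102). The call of Cbs was lost with median-ratio scaling (0.20, adjusted p = 0.141) and with quantile normalization (0.32, adjusted p = 0.064).

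Cdo1 and Csad are the successive enzymes from cysteine to hypotaurine. Cdo1, the cysteine dioxygenase, was at 744, 805 and 745 RPKM in Con, 1315, 938 and 1106 in AOS, 1669.6, 1558 and 844 in STZ and 1758, 1303 and 2032 in STZ+AOS. STZ mouse 3 was close to the Con mice, and the AOS and STZ+AOS mice overlapped. The log2 difference of STZ from Con was 0.77 (SE 0.23), and that of STZ+AOS from AOS was 0.59 (SE 0.23) and missed the threshold of 0.05 (adjusted p = 0.0534). Whether Cdo1 passed depended on the setting. With median-ratio scaling the latter was 0.34 (adjusted p = 0.229), with quantile normalization 0.57 (0.0638), with only the groups compared the adjusted p was 0.0897, without the variance trend it was 0.0432, and without STZ mouse 3 and STZ+AOS mouse 3 the difference was 0.45 (adjusted p = 0.0442).

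Csad (chr15:102176999-102204724, minus strand), the cysteine sulfinate decarboxylase, was the member with the widest range. It was at 129, 148 and 140.3 RPKM in Con and at 156, 173 and 158 in AOS. It was at 14.6, 14.4 and 14.8 in STZ and at 5.26, 5.49 and 56.0 in STZ+AOS. The STZ mice differed little among themselves, while in STZ+AOS mouse 3 stood far above the other mice of its group and still below every mouse without STZ. That mouse is the one whose library held the pancreatic acinar markers, whose part in its Csad level was not tested. By mean level Csad moved from rank 550 among all genes in Con to rank 3625 in STZ. Against Con, STZ mice differed by -3.17 (SE 0.60), or 9.53-fold lower in mean RPKM. That SE is pooled over all 6 groups, of which STZ+AOS varied most (22.2 ± 29.2 RPKM), and does not measure the spread of Con and STZ alone. Csad fell in STZ+AOS against AOS, with a log2 change of -3.63 (SE 0.60, adjusted p = 0.000651), 7.31-fold lower in mean RPKM. Without the 2 mice that stood apart the log2 change was -4.68 (adjusted p = 1.83e-06).

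**Figure D2:**
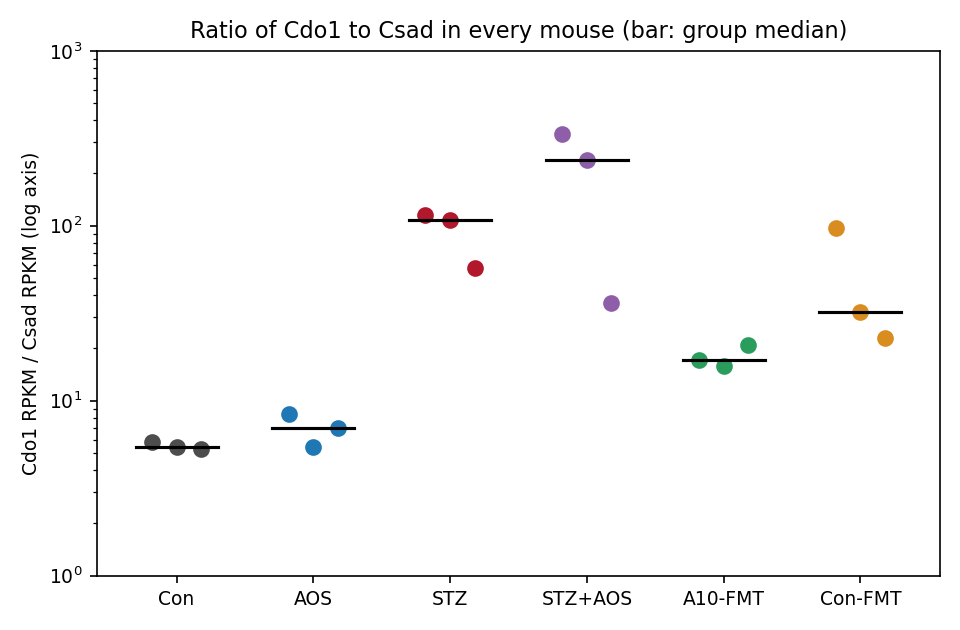
Ratio of Cdo1 RPKM to Csad RPKM (log axis) in each mouse, by group, with the group median as a bar. Con and AOS mice lie at 5.31 to 8.4, A10-FMT mice at 15.8 to 20.9, and the highest values, 334 and 237, are STZ+AOS mice 1 and 2.

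The ratio of Cdo1 to Csad within a mouse does not depend on the scaling of its library. It was 5.31 to 5.78 in the Con mice and 5.43 to 8.4 in the AOS mice. It was 115, 108 and 57.3 in the STZ mice and 334, 237 and 36.3 in the STZ+AOS mice. The ranges with and without STZ did not overlap, with or without the third mouse of each group. With STZ and a transplant it was 17.0, 15.8 and 20.9 in A10-FMT and 97.5, 31.9 and 22.9 in Con-FMT, so that the A10-FMT mice lay between those without STZ and all other mice given it.

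Slc6a6 (chr6:91684053-91759066, plus strand), the taurine transporter of the plasma membrane, was the lowest of the 10 genes in Con. It was at 14.4, 16.6 and 15.1 RPKM in Con, 16.7, 18.6 and 18 in AOS, 29.8, 38.2 and 20.6 in STZ and 29.1, 28.2 and 26.6 in STZ+AOS. STZ and STZ+AOS mice lay above Con and AOS mice, though STZ mouse 3 came near to the AOS mice. The difference between STZ and Con was 0.86 (SE 0.16), and Slc6a6 rose by 0.63 (SE 0.16) in STZ+AOS against AOS (adjusted p = 0.00639). With median-ratio scaling the rise was 0.39 (adjusted p = 0.044) and with quantile normalization 0.40 (adjusted p = 0.0393).

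Gclc (chr9:77754535-77794485, plus strand) encodes the catalytic subunit of glutamate-cysteine ligase, the enzyme that commits cysteine to glutathione. It was at 61.2, 87.4 and 76.1 RPKM in Con, 88.8, 118 and 108 in AOS, 55.8, 67.8 and 105 in STZ and 66.0, 79.5 and 213 in STZ+AOS. STZ mice overlapped with Con mice and STZ+AOS mice with AOS mice, and the highest value of the 18 was that of STZ+AOS mouse 3. The log2 difference of STZ from Con was -0.0095 (SE 0.33), and that of STZ+AOS from AOS was -0.0048 (SE 0.33, adjusted p = 0.992). Without the 2 mice that stood apart, Gclc fell by 0.52 in STZ+AOS against AOS (adjusted p = 0.0293).

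Counted over the list, 7 of the 10 members were called in STZ+AOS against AOS, where 37.9% of all genes tested were called. The 6 that rose were Mat1a, Cth, Gnmt, Ahcy, Slc6a6 and Cbs (31.8% of all genes rose) and the gene that fell was Csad (6.11% of all genes fell). The median log2 change was 0.61 over the members and 0.21 over all genes tested. Without the 2 mice that stood apart, 9 members were called, the 7 and also Cdo1 and Gclc, against 4049 of all genes (4102 with all mice). Of the markers of other cell types tested in the same comparison, 1 of 9 Kupffer cell, 1 of 7 sinusoidal endothelial, 1 of 9 stellate cell and 2 of 3 neutrophil genes rose, 1 of 4 erythroid genes and the 1 lymphocyte gene tested fell, and the elastase Cela1 of the acinar list fell, from 30.6 to 48.8 RPKM in AOS mice to 3.1 to 4.39 in STZ+AOS mice. In STZ against Con, which the choice of members rested on, 7 members were higher without overlap (40.6% of all genes), 1 was lower without overlap (6.98%), and 47.6% of all genes did not overlap in either direction. The median log2 difference was 0.81 over the members and again 0.21 over all genes. That shift of all genes came with smaller RPKM sums in the STZ mice, 631126 to 684659 against 749557 to 806937 in Con. The 10 most abundant genes of a library held 19.0% to 28.5% of the sum in STZ and 33.6% to 39.0% in Con. The cause of the shift was not tested. Median-ratio scaling centres each library on its median ratio. It therefore brings the median change near 0 by design, here to -0.0091. With that scaling 6 members were called in STZ+AOS against AOS, 5 that rose and Csad, where 1313 of 10769 genes rose and 1333 fell, with a median of 0.37 over the members and 0.0089 over all genes.

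**Figure D3:**
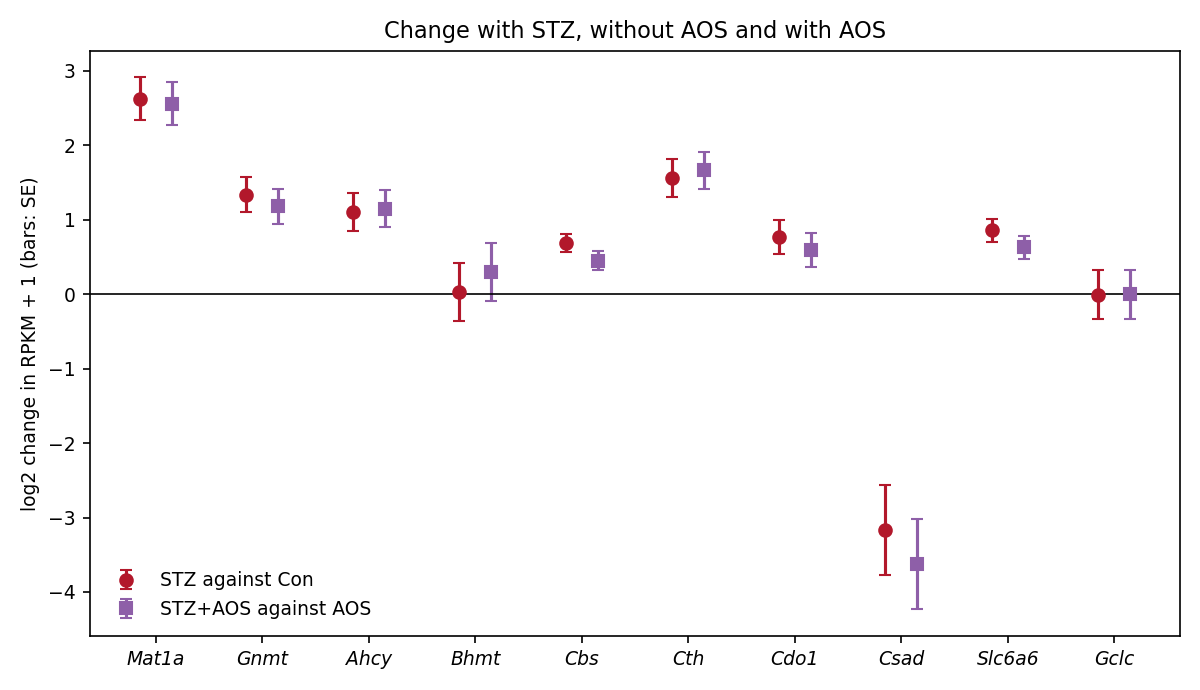
Difference in log2(RPKM + 1) for the 10 genes, in STZ against Con (circles) and STZ+AOS against AOS (squares), with the SE of the limma fit as bars. Mat1a stands highest at 2.63 and 2.56 and Csad lowest at -3.17 and -3.63, while the SE of Bhmt and of Gclc spans 0 in both comparisons.

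AOS given without STZ was compared with Con to ask whether the oligosaccharide by itself moved these genes. None of the 10 members was called by limma (2 had an unadjusted p under 0.05), and 0.00924% of all genes, 1 gene, was called. The levels were nevertheless not the same in all mice: 7 members did not overlap between AOS and Con, and 24.4% of all genes did not overlap. Cbs was at 170.3, 152 and 152 RPKM against 111, 129.7 and 127 (0.37, SE 0.12, adjusted p = 0.586), and Cdo1 differed by 0.54 (SE 0.23, adjusted p = 0.66). Bhmt was the member that was lower in every AOS mouse than in every Con mouse, with a log2 difference of -0.49 (SE 0.39, adjusted p = 0.824). The Con mice of this comparison were among those known when the members were chosen.

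AOS given with STZ was compared with STZ, whose mice were known as well. None of the 10 members was called (0 had an unadjusted p under 0.05), and 0% of all genes were called, while 657 genes had an unadjusted p under 0.05. No member stood apart between these groups either, where 5.13% of all genes did. With all mice, the largest differences were those of Gclc, 0.49 (SE 0.33), and Cdo1, 0.36 (SE 0.23, adjusted p = 0.811 for each). That order depended on single mice. Without STZ+AOS mouse 3 Gclc was at -0.022 and Csad at -1.29, and without STZ mouse 3 Cdo1 was at 0.050. Csad differed by -0.24 (SE 0.60) on the log2 scale, with 2 STZ+AOS mice below and mouse 3 above all STZ mice. Its mean RPKM was higher in STZ+AOS (22.2) than in STZ (14.6). The difference between the effect of STZ with AOS and without it was also tested, in a contrast that includes the STZ and Con mice by which the members were chosen and is not independent of that choice. It was called for none of the 10 members (0 with an unadjusted p under 0.05) and for 0% of all genes (584 with an unadjusted p under 0.05). For Csad it was -0.46 (SE 0.85) with an adjusted p of 0.975, and it ran from -1.51 without STZ+AOS mouse 3 to 0.079 without STZ+AOS mouse 1.

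The transplants were set beside STZ to ask whether microbiota from AOS-fed or control donors went with other levels of these genes; the values below describe mice on which the list was drawn up. Csad was at 57.9, 61.2 and 48.9 RPKM in the A10-FMT mice and at 12.2, 29.3 and 43.1 in the Con-FMT mice. All A10-FMT mice lay above all STZ mice and above all Con-FMT mice, while Con-FMT mouse 1 lay below the STZ mice. The log2 difference from STZ was 1.86 (SE 0.60) in A10-FMT and 0.74 (SE 0.60) in Con-FMT. This SE, and that of the other Csad differences, is pooled over all 6 groups and includes the wide spread of the STZ+AOS mice. It does not measure the spread of the groups compared. With a mouse left out the Con-FMT value ran from 0.36 (without Con-FMT mouse 3) to 1.23 (without Con-FMT mouse 1), and the A10-FMT value from 1.80 to 1.96. Between A10-FMT and Con-FMT the difference was 1.12 (SE 0.60), and 0.63 without Con-FMT mouse 1. Both groups remained below every Con mouse, 2.48-fold and 4.93-fold lower in mean RPKM.

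Of the other members, Cth and Slc6a6 were lower in all A10-FMT mice than in all STZ mice. Cth was at 356, 352 and 423 RPKM in A10-FMT and at 441, 265 and 379 in Con-FMT, below all STZ mice in both groups and above all Con mice. Slc6a6 was at 20.4, 17.8 and 19.2 in A10-FMT and at 21.8, 19.7 and 17.4 in Con-FMT, where 1 mouse overlapped with STZ mouse 3. In all, 3 members did not overlap between A10-FMT and STZ, 1 between Con-FMT and STZ, and 1, Csad, between A10-FMT and Con-FMT. Over all genes the shares were 21.4%, 17.5% and 8.84%. Without STZ mouse 3, which lay nearest to the transplanted mice, 6 members did not overlap between A10-FMT and STZ (Csad higher, and Cth, Slc6a6, Mat1a, Cdo1 and Ahcy lower) and 4 between Con-FMT and STZ (Cth, Slc6a6, Mat1a and Cdo1 lower), against 48.1% and 43% of all genes.

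Mat1a was at 1956, 1546 and 2021 RPKM in A10-FMT and 2593, 1279.7 and 1664 in Con-FMT, between Con and the upper STZ mice. Gnmt was at 2872, 2602 and 3412 in A10-FMT and 3739, 2062 and 2451 in Con-FMT, within the range of the STZ mice or next to it. Ahcy was at 52.5, 54.3 and 62.6 in A10-FMT and 90.0, 42.8 and 49.4 in Con-FMT, also overlapping with STZ. None of these enzymes of the methionine cycle came down to the level of the Con mice in any transplanted mouse. Cbs was at 255, 202 and 196 RPKM in A10-FMT and 253, 216 and 209 in Con-FMT, overlapping with the STZ mice. Mouse 1 of each transplanted group lay above every STZ mouse. Cbs stayed above every Con mouse in all transplanted mice. Cdo1 was at 982, 966 and 1023 in A10-FMT and 1187, 936 and 988 in Con-FMT. Bhmt was at 3236, 2771 and 1878 in A10-FMT and 3588, 1603 and 1687 in Con-FMT. Gclc was at 77.6, 64.1 and 60.5 in A10-FMT and 73.0, 82.0 and 67.1 in Con-FMT, and Cdo1, Bhmt and Gclc overlapped with STZ in both groups. For Cdo1 that overlap lay in STZ mouse 3, without which its log2 difference from STZ went from -0.39 to -0.70 in A10-FMT and from -0.33 to -0.64 in Con-FMT. In Con-FMT, mouse 1 had the highest Mat1a, Gnmt, Ahcy, Bhmt, Cth and Cbs and the lowest Csad of its group. That library also held the most Hba-a1, the alpha globin of red cells (6455 RPKM, against 276.5 to 2715 in the other 17), and the part of blood in its levels was not tested.

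How the genes moved with each other was described over the 18 libraries, which share their groups, so the values carry no p. Gnmt and Ahcy were most alike, with a Pearson r of 0.96 on log2(RPKM + 1), and 0.92 after the group means were subtracted. Of the 45 pairs, 15 had an r above 0.7, and 7 after subtraction. Csad ran against Cth (-0.91), Mat1a (-0.87), Ahcy (-0.87) and Gnmt (-0.83). After subtraction of the group means its r was -0.66 with Cth, 0.19 with Cdo1, -0.70 with Gnmt, -0.80 with Bhmt and 0.75 with Gclc. Without STZ mouse 3 and STZ+AOS mouse 3 (16 libraries) these were -0.28, -0.46, -0.76, -0.64 and 0.068, so that the values for Cth, Cdo1 and Gclc depended on those mice.

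**Figure D4:**
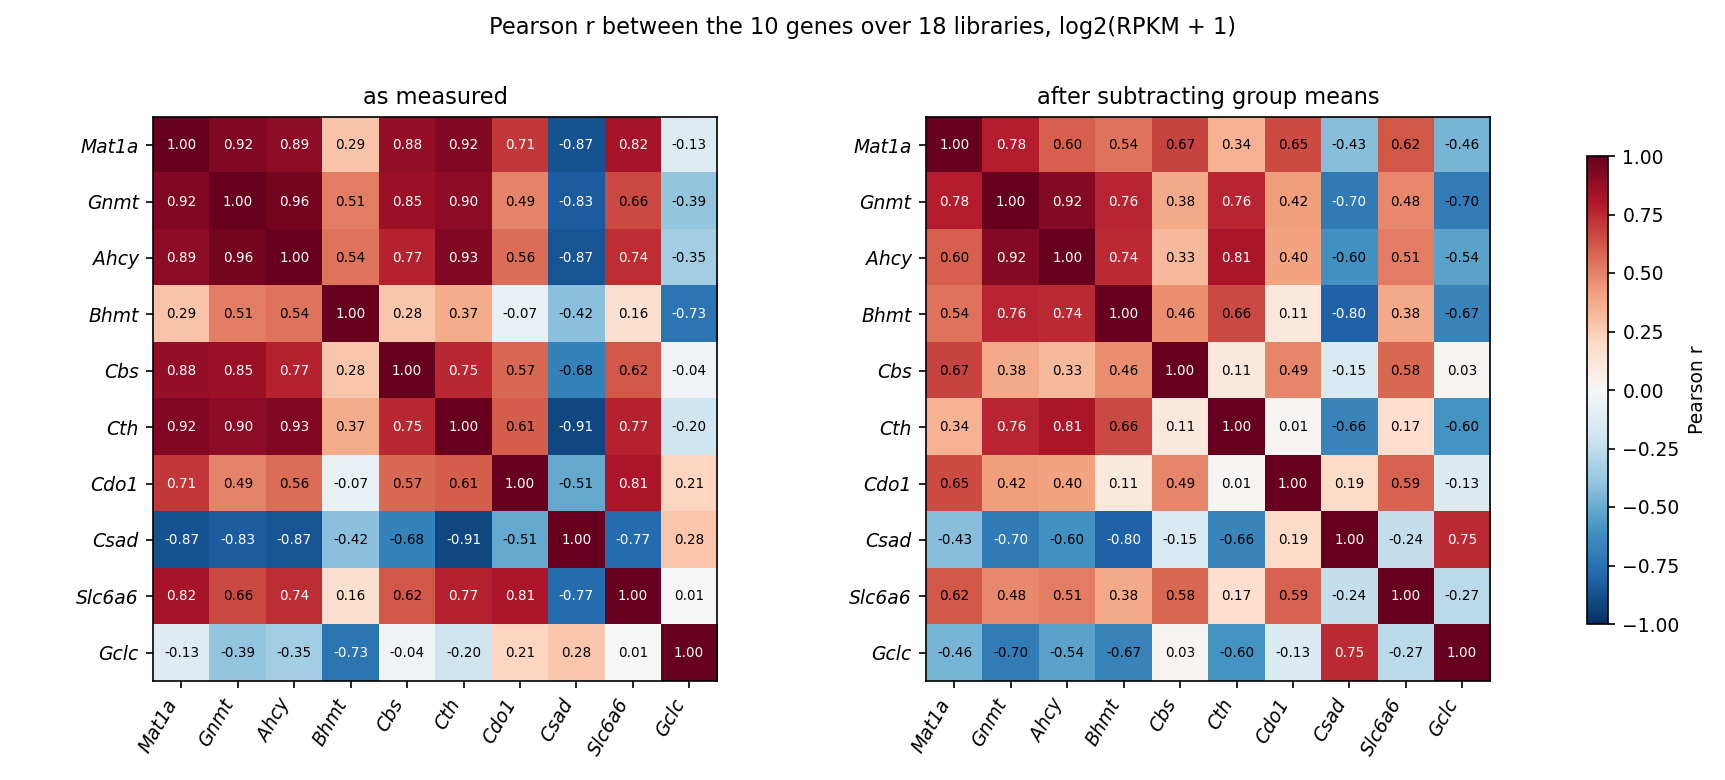
Pearson r of log2(RPKM + 1) between the 10 genes over 18 libraries, as measured (left) and after subtracting the mean of each group (right); red is positive and blue negative. Gnmt and Ahcy are at 0.96 and 0.92, and the Csad row is blue against every member but Gclc on the left.

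Among all genes tested, those whose levels were most like those of Csad over the 18 libraries included Pdilt (r = 0.94), Ihh (0.93), Inhbc (0.92) and Cib3 (0.91). Cib3, named for this likeness, had a mean of 5.37 RPKM in Con and 0.32 in STZ, and of 2.65 and 0.83 with the A10-FMT and Con-FMT transplants. The 3 genes that ran most against Csad were Atpaf1 (-0.95), Srp54b (-0.94) and Dlst (-0.94), the last a subunit of the 2-oxoglutarate dehydrogenase complex, with a mean of 61.3 RPKM in Con and 115.9 in STZ.

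A list of 64 further genes of sulfur amino acid metabolism, drawn up by their roles but with earlier results of these data known, was tested in all comparisons; 57 passed the filter. In STZ against Con 24 of them rose and 8 fell, where 30.8% of all genes rose, 5.25% fell and 36.1% were called. Of other cell types' markers tested there, 2 of 9 Kupffer cell, 2 of 7 sinusoidal endothelial and 2 of 9 stellate cell genes rose. Those that fell were 1 of 3 cholangiocyte, 1 of 1 lymphocyte, 1 of 4 erythroid and 1 of 1 acinar genes. The part of these cell types in the calls was not tested. The acinar gene was Cela1, at 30.8 to 40.5 RPKM in Con, where the other genes of its list were at 0 to 0.64. Its fall is therefore not a measure of acinar cells. In STZ+AOS against AOS 21 rose and 6 fell, where 31.8% of all genes rose and 6.11% fell. With median-ratio scaling, which left 55 genes, these splits were 18 and 11, and 14 and 12, and those of all 10769 genes were 1319 and 1319, and 1313 and 1333. The median log2 change of the list was 0.29 in STZ against Con and 0.22 in STZ+AOS against AOS, against 0.21 over all genes in each.

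Of the 19 genes tested around the methionine cycle and its methyl groups, 7 rose and 2 fell in each of these comparisons. Of all genes, 30.8% and 31.8% rose and 5.25% and 6.11% fell. The counts by list, here and below, were made on the deposited scale only. Chdh, the choline dehydrogenase that supplies betaine, rose from 25.3 ± 3.53 RPKM in Con to 44.4 ± 3.37 in STZ (0.80, SE 0.14, adjusted p = 0.000788). Nnmt, which methylates nicotinamide with S-adenosylmethionine, was at 1.44, 0.49 and 0.77 RPKM in AOS and at 493, 212 and 145 in STZ+AOS, a log2 change of 7.06 (SE 0.79, adjusted p = 4.96e-05). In the Con mice Nnmt ranged widely, at 42.5, 1.76 and 22.9.

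Of the 9 genes of cysteine and sulfide breakdown, 5 rose and 2 fell in STZ against Con, and 2 rose and 2 fell in STZ+AOS against AOS. The shares over all genes were 30.8% and 5.25%, and 31.8% and 6.11%. Got1, the cytosolic aspartate aminotransferase, which also acts on cysteine sulfinate, had the smallest adjusted p of the list. It was at 33.6, 51.8 and 44.8 RPKM in Con and 321, 318 and 245 in STZ, and at 73.3, 55.9 and 59.3 in AOS and 376, 363 and 462 in STZ+AOS. The groups lay well apart. Got1 rose by 2.75 (SE 0.24, adjusted p = 6.8e-06) and by 2.65 (SE 0.24, adjusted p = 6.86e-06), while Csad, which acts on the same substrate, was lower in the same mice. In A10-FMT Got1 was at 213, 194 and 241 and in Con-FMT at 308, 133 and 208.

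Of the genes of taurine synthesis and use besides the members, 5 of 6 were tested, and 3 rose in each comparison, where 30.8% and 31.8% of all genes rose. Fmo1, a flavin monooxygenase that oxidizes hypotaurine to taurine among other substrates, was at 78.1, 121 and 101 RPKM in Con and 229.9, 208 and 179.9 in STZ (1.05, SE 0.18, adjusted p = 0.000744), and rose by 0.92 (SE 0.18) in STZ+AOS against AOS (adjusted p = 0.00172). Slc27a5, which activates bile acids with coenzyme A, rose by 0.75 (SE 0.14) and 0.48 (SE 0.14, adjusted p = 0.00127 and 0.0152), the latter lost with median-ratio scaling (adjusted p = 0.131). Baat, which joins the activated bile acids to taurine or glycine, was at 152 ± 6.84 RPKM in Con and 148 ± 14.9 in STZ, a difference of -0.039 (SE 0.13) that did not pass (adjusted p = 0.834). Ado, the dioxygenase of cysteamine, which leads to hypotaurine by another way, was at 3.34 ± 0.123 and 4.07 ± 0.176 and did not pass either (adjusted p = 0.11). Gadl1, a decarboxylase related to Csad, was listed at no more than 0.04 RPKM in any mouse.

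Vnn1, the pantetheinase that releases cysteamine, was the gene of the list called with a transplant. It was at 1.47, 1.19 and 1.29 RPKM in Con and 5.08, 4.25 and 3.71 in STZ. The transplanted mice were at 1.86, 1.14 and 0.81 (A10-FMT) and at 2.37, 0.68 and 1.08 (Con-FMT). All A10-FMT and Con-FMT mice lay below all STZ mice. Vnn1 rose by 1.20 (SE 0.26) with STZ (adjusted p = 0.00292) and fell in A10-FMT against STZ, with a log2 change of -1.25 (SE 0.26, adjusted p = 0.0448), where 0.49% of all genes were called. In Con-FMT against STZ it was -1.22 (SE 0.26, adjusted p = 0.0669), and 0.166% of all genes were called. The call in A10-FMT was lost with a pseudocount of 0.1 (adjusted p = 0.0548), with no filter (0.0906), with only the groups compared (0.189), and without any one of the A10-FMT, Con or AOS mice, STZ mouse 1 or 2, or Con-FMT mouse 3. In Con-FMT against STZ it passed without the 2 mice that stood apart (-1.31, adjusted p = 0.00491).

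Of the 10 genes of glutathione synthesis and breakdown, 3 rose and 1 fell in STZ against Con, and 4 rose and 1 fell in STZ+AOS against AOS. That is near the shares of all genes that rose, 30.8% and 31.8% (5.25% and 6.11% fell). Gss, the glutathione synthetase, rose by 0.70 (SE 0.15) and 0.64 (SE 0.15, adjusted p = 0.00249 and 0.00406), and by 0.43 and 0.40 with median-ratio scaling (adjusted p = 0.0352 and 0.0482). Gclm, the modifier subunit that pairs with Gclc, rose by 0.39 (SE 0.11) in STZ against Con (adjusted p = 0.0111) and differed by 0.24 (SE 0.11) in STZ+AOS against AOS (adjusted p = 0.0843), and with median-ratio scaling neither passed (0.13 and -0.00032). Oplah, the 5-oxoprolinase of the glutathione cycle, rose from 27.4 ± 1.29 RPKM to 55.2 ± 2.97 (adjusted p = 0.000149). Ggct, a gamma-glutamyl cyclotransferase, fell, with a log2 change of -0.74 (SE 0.11, adjusted p = 0.00033).

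Of the 14 transporters tested, 6 rose and 3 fell in STZ against Con, and 5 rose and 1 fell in STZ+AOS against AOS. Over all genes 30.8% rose and 5.25% fell in the first, and 31.8% and 6.11% in the second. Slc38a2, a carrier of small neutral amino acids including methionine, was at 13, 16.3 and 15.1 RPKM in Con and 45.4, 61.1 and 41.7 in STZ, and rose by 1.66 (SE 0.21) and 1.29 (SE 0.21, adjusted p = 9.82e-05 and 0.00057). Slc16a10, an aromatic amino acid carrier, rose by 1.62 (SE 0.24) in STZ+AOS against AOS (adjusted p = 0.000343). None of the 57 genes was called by limma in AOS against Con (6 with an unadjusted p under 0.05), in STZ+AOS against STZ (3) or in Con-FMT against STZ (11). In Con-FMT against STZ that depended on STZ mouse 3: 7 genes were called without it, and 11 without the 2 mice that stood apart.

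**Figure D5:**
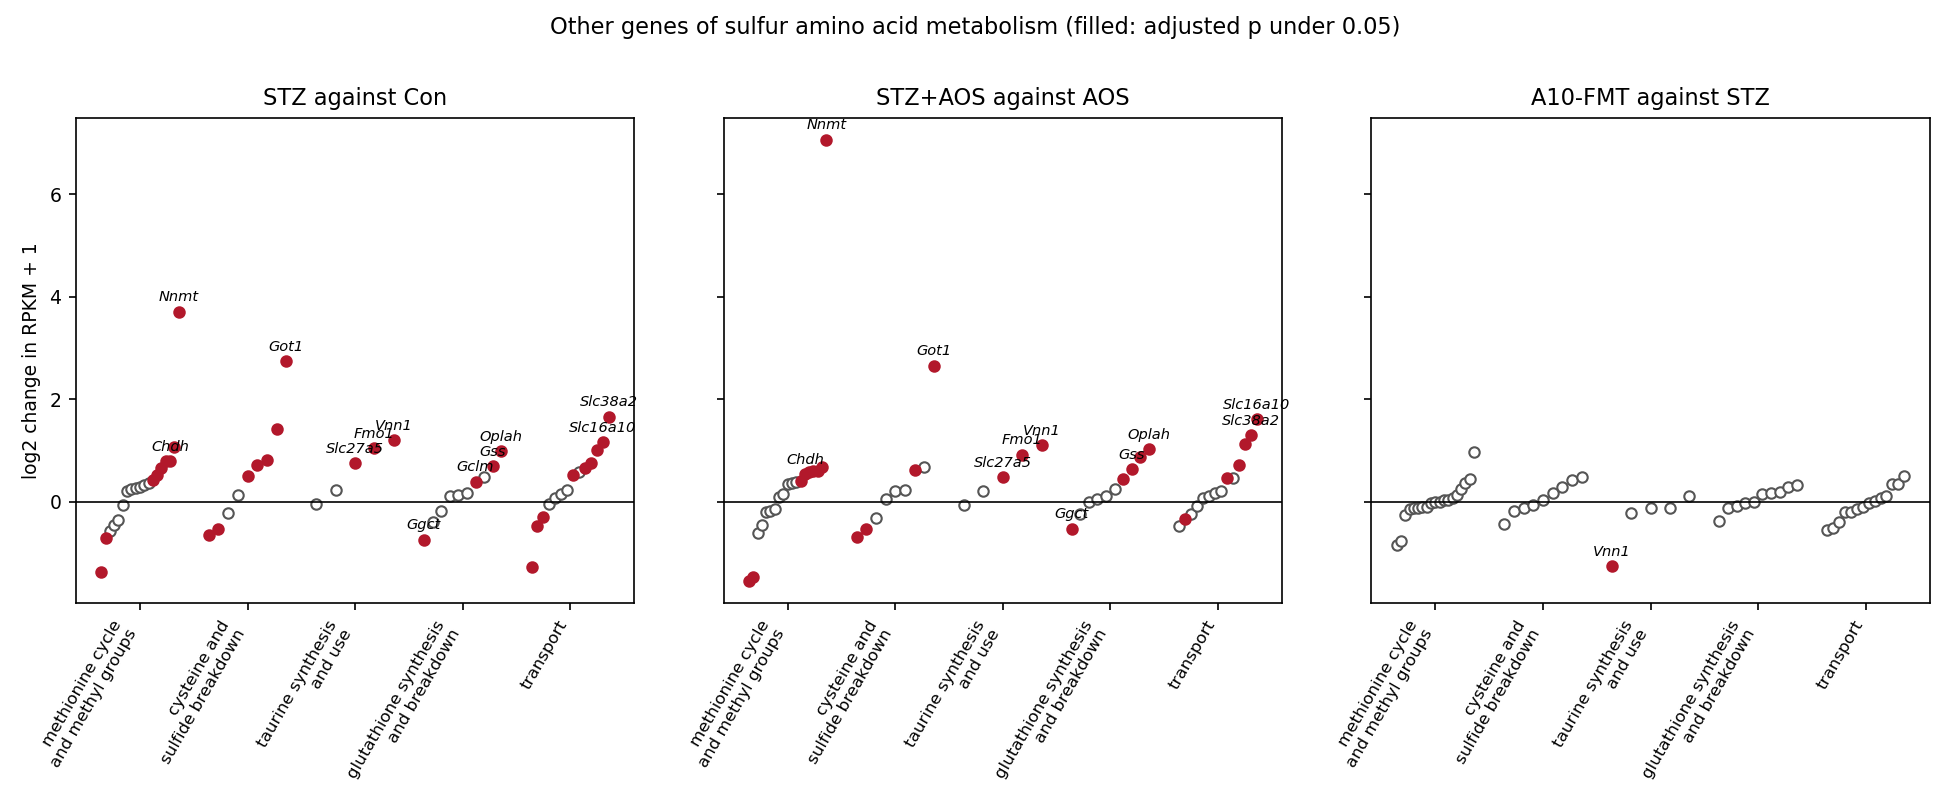
Log2 change of the 57 tested genes around the members, in 5 lists, in STZ against Con, STZ+AOS against AOS and A10-FMT against STZ; filled points have an adjusted p under 0.05 and each point is a gene, ordered within its list. Nnmt and Got1 stand highest with STZ, and Vnn1 is the filled point on the right.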

How the data were processed

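Livers were frozen and their RNA sequenced on Illumina instruments. Per the labels, the submitters' processing notes name Bowtie 0.12.2 and mm10, while the methods of the paper name SOAPaligner. The authors deposited 1 RPKM value for each gene symbol and library (19057 rows, of which 3 symbols occur more than once), that is, reads divided by transcript length and mapped reads. The unit was taken from the methods. All 18 columns were matched to groups by their labels.

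One was added to the RPKM before log2, and a gene was kept if 3 or more libraries reached 1 RPKM (10822 genes). Because RPKM are not counts, the read-based test of the methods (DEGseq) was not used. Group means of all 6 groups were fitted in limma 3.58.1 (R 4.3.3; lmFit, contrasts.fit, eBayes with trend), with two-sided p-values adjusted by Benjamini-Hochberg over all genes of a contrast, threshold 0.05. Low values step by the worth of 1 read, and the steps of 109 genes gave relative depths of 0.958 to 1.07. The total depth is unknown. The members and lists were chosen with earlier results of these data known. Named genes were the 10 members, at most 6 called pathway genes per contrast with the smallest adjusted p and no overlap between mice, the taurine list with Gclm and Gss, the 5 genes most and the 3 least like Csad, and the most abundant gene of each marker list; 1 gene that this rule names is not reported here. The fits were tested on simulated data, and no result of that is given or used here. Alternatives were median-ratio scaling, quantile normalization, no variance trend, no filter, a pseudocount of 0.1, a minimum of 1 RPKM in all 18 libraries, a replicate block, only the groups compared, leaving out each mouse and, chosen after seeing the data, leaving out STZ mouse 3 and STZ+AOS mouse 3 together. Positions come from GENCODE M21 (GRCm38) and promoter letters from RefSeq (GRCm38.p6).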

Additional observations from a re-analysis of the deposited data

Results flagged for a closer look

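Slc6a6 is listed because, in RPKM, every AOS mouse lay on one side of the Con mean and every STZ+AOS mouse on the other side of the STZ mean. In AOS against Con every AOS mouse (16.7, 18.6 and 18 RPKM) was above every Con mouse (14.4, 16.6 and 15.1), a log2 difference of 0.20 (SE 0.16). In STZ+AOS against STZ each STZ+AOS mouse (29.1, 28.2 and 26.6) was below the mean RPKM of the STZ mice (29.5 ± 8.80). On the log2(RPKM + 1) scale STZ+AOS mouse 1 was above the STZ mean, and the log2 difference of the groups was -0.031 (SE 0.16). The gap between these differences was 0.228 on the log2 scale, and the second ran from -0.26 to 0.17 with a mouse left out. Log2 differences of opposite sign were also seen for Csad (0.22 and -0.24) and Gnmt (0.034 and -0.12), though not in every mouse. For Csad the sign of the second depended on the scale and on the mice. Its mean RPKM was higher in STZ+AOS (22.2) than in STZ (14.6), and the log2 difference was 0.30 without STZ+AOS mouse 1. The opposite movement chose Slc6a6. The difference itself, tested for all genes as an interaction, did not pass for Slc6a6 (-0.23, SE 0.22, adjusted p = 0.934 by limma).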

How the results depend on the processing

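The 7 members called in STZ+AOS against AOS numbered 6 with either other scaling, 8 without the variance trend, 7 to 8 with any mouse left out, and 7 with the remaining planned settings. No member was called under any setting in AOS against Con, in STZ+AOS against STZ or in the difference between the effects. Of 45 same-numbered pairs of libraries over the 6 groups, 16 had deviations from the group means that correlated above 0.1 (lowest -0.25, median 0.032, highest 0.47). Libraries of different numbers were not compared in this way, so a pairing by mouse number was neither shown nor excluded. A10-FMT and Con-FMT were a pair of groups with all 3 above 0.1 (0.12, 0.29 and 0.18), and no test was given for that comparison. With the replicate block 7 members were called in STZ+AOS against AOS, and the count of all genes in AOS against Con went from 1 to 0.

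The count of all genes in STZ+AOS against AOS, 4102 (83.9% higher), was 2646 with median-ratio scaling (49.6% higher), 2729 with quantile normalization and 2483 with only the groups compared. In STZ against Con, 3904 genes (85.5% higher) became 2638 with median-ratio scaling (50% higher), and 2412 (without STZ mouse 2) to 4658 (without STZ mouse 3) with a mouse left out. In AOS against Con, 1 gene became 7 with median-ratio scaling, 2 with quantile normalization, 0 with a pseudocount of 0.1, 4 with no filter, 0 with 1 RPKM in every library, 41 with only the groups compared, 7 without the 2 mice that stood apart, and 0 to 6 with a mouse left out. In STZ+AOS against STZ, 0 genes became 6 with no filter and 0 to 2 with a mouse left out. In A10-FMT against STZ, 53 genes became 12 with no filter, 1 with only the groups compared, 1864 without the 2 mice, and 0 to 1000 with a mouse left out, the highest without STZ mouse 3. In Con-FMT against STZ, 18 became 29 with median-ratio scaling, 4 with no filter, 11 with 1 RPKM in every library, 0 with only the groups compared, 2044 without the 2 mice, and 0 to 1322 with a mouse left out, the highest again without STZ mouse 3.

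Of the pathway genes, 1 was called in AOS against Con with only the groups compared, and 0 to 1 with a mouse left out. In A10-FMT against STZ the 1 call became 2 with either scaling, 0 with no filter, with a pseudocount of 0.1, with 1 RPKM in every library or with only the groups compared, 7 without the 2 mice, and 0 to 2 with a mouse left out. In Con-FMT against STZ the 0 calls became 11 without the 2 mice and 0 to 7 with a mouse left out.

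Some differences that did not pass the test changed sign. Without the 2 mice, STZ+AOS against STZ was -0.092 for Cdo1 and 0.093 for Bhmt, and the difference between the effects was -0.0062 for Ahcy and -0.26 for Gclc. With median-ratio scaling AOS against Con was -0.040 for Gnmt, and STZ+AOS against AOS was -0.00032 for Gclm. With a mouse left out, log2 differences in STZ+AOS against STZ ran from -1.29 to 0.30 for Csad, -0.065 to 0.53 for Cth, -0.30 to 0.081 for Gnmt, -0.57 to 0.28 for Bhmt, -0.28 to 0.15 for Ahcy, -0.26 to 0.17 for Slc6a6 and -0.022 to 0.82 for Gclc. In AOS against Con they ran from -0.0086 to 0.25 for Cth and -0.072 to 0.099 for Gnmt, and in STZ+AOS against AOS from -0.051 to 0.80 for Bhmt and -0.52 to 0.32 for Gclc. In STZ against Con the range was -0.093 to 0.046 for Baat. The difference between the effects ran from -1.51 to 0.079 for Csad, -0.49 to 0.0043 for Cdo1, -0.19 to 0.40 for Cth, -0.32 to 0.17 for Mat1a, -0.33 to 0.048 for Gnmt, -0.078 to 0.77 for Bhmt, -0.19 to 0.24 for Ahcy and -0.51 to 0.33 for Gclc. The cause of these changes was not tested.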

Other observations

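Markers of other cell types were read in the same libraries, by lists that held no member. The pancreatic acinar list had 6 genes, of which Cela1, its most abundant, was at 30.6 to 48.8 RPKM in the Con and AOS mice and at 2.96 to 13.8 in all mice given STZ. In STZ+AOS mouse 3 Cela1 was at 4.39, but Ctrb1, a pancreatic chymotrypsinogen named here after its value was seen, was at 36.5 RPKM, against at most 0.61 in the other 17 libraries. The same library had the highest Tat, a gluconeogenic aminotransferase (4124 RPKM against 334 to 1498 in the others), the highest Gclc and the lowest Bhmt. Alas2, the erythroid heme synthesis gene, also named after its values were seen, was at 90.3 to 121 RPKM in Con and AOS mice, at 2.93 to 43.4 in STZ and STZ+AOS mice and at 37.1 to 55.5 in the transplanted mice. Hba-a1, the most abundant of the 6 erythroid genes, did not follow it, at 894 to 2494 RPKM in Con and AOS mice, 276.5 to 1626 in STZ and STZ+AOS mice and 1169 to 6455 in the transplanted mice. Clec4g of sinusoidal endothelium (18.6 to 35.3 RPKM), C1qb of Kupffer cells (18.1 to 56.2), Dcn of stellate cells (61.4 to 142) and Spp1 of cholangiocytes (16.9 to 36.8) were present in all libraries. S100a8 of neutrophils was at 0.51 to 6.64, Nkg7 of lymphocytes at 0.1 to 1.11 and Kap of kidney tubule at 0 to 5.02.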
